A study of Mus musculus with 10 samples.

Results

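The nuclear-encoded subunits of mitochondrial complex I were followed in the livers of fasted and refed mice, with and without hepatocyte NAMPT. A gene was taken as a subunit when its Ensembl gene was protein coding and its symbol began with Ndufa, Ndufb, Ndufc, Ndufs or Ndufv followed by a digit, or was Ndufab1. This name rule, which uses no measured value and leaves out the assembly factors named Ndufaf, gave 38 genes on 15 chromosomes among the 41388 genes counted. The 4 processed pseudogenes that share such names (Ndufab1-ps, Ndufs6b, Ndufb4c and Ndufa11b) were left out. Liver mRNA was sequenced from 10 male C57B/6J mice of 12 weeks in 3 groups. WT refed mice (n = 2) were NAMPT fl/fl littermates fasted for 22 h and then refed for 2 h. WT fasting mice (n = 3) were NAMPT fl/fl littermates fasted for 24 h. NAMPT LKO fasting mice (n = 5) carried NAMPT fl/fl with Albumin-cre, which the study describes as a deletion specific to hepatocytes, and were also fasted for 24 h. Whether other liver cells kept the gene was not tested here. All 10 mice thus carried the floxed allele and had been fasted, and there was no NAMPT LKO refed group. These hours are those of the sample labels, whereas the study's text describes a shorter fast and random-fed controls.

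Complex I, NADH:ubiquinone oxidoreductase, is the largest enzyme of the respiratory chain. It takes electrons from mitochondrial NADH, passes them along a flavin and a row of iron-sulfur clusters in a peripheral arm to ubiquinone, and couples that transfer to proton pumping by a membrane arm. The clusters and the flavin sit in nuclear-encoded core subunits, whereas the pumping core of the membrane arm is encoded by the mitochondrial genome (the mt-Nd genes). The remaining nuclear subunits are accessory proteins that surround the core and are needed for its assembly and stability. NAMPT is the rate-limiting enzyme of NAD+ salvage, and NADH that complex I oxidizes is drawn from the same pool. In the fasted liver, NADH from fatty acid oxidation is a main supply of complex I.

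The libraries held 30603080 to 43434139 counted reads. Nampt, the targeted gene, stood at 78.0 and 67.8 CPM (reads of a gene relative to the library total, scaled by TMM, a factor per library that equalizes most genes) in WT refed mice, at 63.0, 73.4 and 141 CPM in WT fasting mice and at 12.1, 14.04, 11.8, 12.5 and 15.3 CPM in NAMPT LKO fasting mice, so every library matched its genotype label. The WT refed values lay within the WT fasting range, so Nampt does not tell refed from fasting mice, and the feeding labels were not checked. Summed CPM of 8 hepatocyte genes lay at 89986 to 94263, 93453 to 112716 and 78873 to 108399 in the 3 groups, in that order. Summed CPM of 4 bile duct genes lay at 13.6 to 15.5 in NAMPT LKO fasting mice against 6.54 to 11.4 in WT fasting mice, and that of 3 pancreas genes (Prss2 at 0 in every library) at 3.59 to 5.28 against 6.16 to 6.70. Their part in the results was not tested. NAMPT LKO fasting library 5 stood apart, with 21.1% of its reads on the mitochondrial genome against 7.42 to 12.9% in the other 9, so results that rest on it are given with and without it. In bulk liver, fewer cells of a type and less RNA per cell cannot be told apart.

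The start sites of the subunit genes were read from RefSeq on GRCm38.p6 in windows of 300 bases, with 250 before the start and 50 after it, which were at hand for 33 of the 38 genes. The windows were GC-rich, with a median GC content of 59.0% and a median of 20 CpG dinucleotides, against 52.7% and 7 over the 27025 genes of the table. The NRF1 motif (the 10 bases in capitals in Ndufs5, with any base in the sixth place), bound by a factor known for its role at respiratory genes, was found on either strand in 7 of 33 genes (21.2%, against 5.19% of all genes). Those 7 were Ndufa5, Ndufa6, Ndufa8, Ndufa11, Ndufb4, Ndufs5 and Ndufs6. The YY1 motif was found in 4 (12.1%, against 0.995%), namely Ndufa9, Ndufs4, Ndufs6 and Ndufs7. The CRE motif TGACGTCA, which reads the same on both strands, was found in Ndufa10, Ndufa11 and Ndufb2 (9.09%, against 2.03%). The ETS motif CCGGAAGT was found in Ndufs3 alone (3.03%, against 4.31%), the TATA motif TATAAAA in Ndufa7 alone (3.03%, against 6.39%) and the ERR motif TCAAGGTCA in 0 of 33 (against 0.466%). Ndufa11 and Ndufs6 each held a pair of these motifs, which did not overlap. A match describes the letters and not binding, and no match says only that these letters are not in the window. The annotated-exon-free stretches upstream of 4 genes are shown for their contrast, with the motif in capitals. Ndufs5 (chr4:123718203-123718436, minus strand) and Ndufb4 (chr16:37654454-37654618, minus strand) hold an NRF1 motif, Ndufb2 (chr6:39592315-39592564, plus strand) holds a CRE motif close to its start, and Ndufa3 (chr7:3617123-3617372, plus strand) holds none of the motifs searched.
Ndufs5: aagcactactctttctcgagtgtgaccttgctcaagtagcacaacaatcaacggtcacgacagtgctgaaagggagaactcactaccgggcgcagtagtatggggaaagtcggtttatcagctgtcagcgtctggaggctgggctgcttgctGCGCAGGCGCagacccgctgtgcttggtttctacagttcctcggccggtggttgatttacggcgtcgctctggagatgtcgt
Ndufb4: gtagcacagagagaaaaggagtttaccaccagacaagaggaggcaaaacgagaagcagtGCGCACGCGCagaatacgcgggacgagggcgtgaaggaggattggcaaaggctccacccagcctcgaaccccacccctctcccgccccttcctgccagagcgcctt
Ndufb2: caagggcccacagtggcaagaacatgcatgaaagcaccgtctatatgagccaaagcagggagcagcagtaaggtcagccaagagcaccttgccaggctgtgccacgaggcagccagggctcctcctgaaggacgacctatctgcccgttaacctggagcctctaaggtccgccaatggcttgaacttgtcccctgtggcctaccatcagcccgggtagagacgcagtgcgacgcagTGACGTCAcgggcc
Ndufa3: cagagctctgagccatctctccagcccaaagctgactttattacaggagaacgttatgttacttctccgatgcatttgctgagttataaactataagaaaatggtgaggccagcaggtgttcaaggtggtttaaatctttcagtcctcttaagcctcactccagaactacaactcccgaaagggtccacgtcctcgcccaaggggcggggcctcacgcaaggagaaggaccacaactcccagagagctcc
In NAMPT LKO fasting library 5, Ndufs5 and Ndufb2 were also the members farthest above their own means, by 1.27 and 0.94 in log2 CPM. Ndufa5, which holds an NRF1 motif and is not shown, followed at 0.80, and Ndufb4 was at 0.30. Ndufa3 was the member farthest below its own mean, at -0.63. A part of the motifs in these values was not tested.

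All 38 genes passed the filter on low counts (over 1 CPM in at least 1 library). Their levels per length, as mean RPKM (TMM-scaled CPM per kilobase of exon) over the 10 libraries, spanned 382-fold around a median of 49.3, and 23 of 38 lay between 20 and 100 RPKM. Ndufb9, an accessory subunit of the distal membrane arm, was highest at 413 RPKM. Its CPM was 272 and 276 in WT refed mice, 283, 301 and 267 in WT fasting mice and 248, 255, 223, 273 and 288 in NAMPT LKO fasting mice, so the groups overlapped. Ndufa4, long counted as a complex I subunit and now placed with complex IV (cytochrome c oxidase), followed at 393 RPKM, and Ndufa6, an accessory subunit of the NADH-oxidizing arm, at 348 RPKM. These 3 did not separate from each other over the libraries but stood clear of the next member, Ndufs6, at 145 RPKM. The lowest were Ndufa4l2, a paralog of Ndufa4 known as a hypoxia-induced gene, at 1.08 RPKM, and Ndufb2, of the distal membrane arm, at 1.38 RPKM, both clear of Ndufs1 at 10.2 RPKM. In all, 35 of the 37 neighbouring pairs in the order of levels overlapped across libraries and only those 2 gaps did not. The order went with the length assigned to each gene: across the 38 genes, Spearman's rho of mean RPKM with exonic length was -0.736, and the low values of Ndufb2, Ndufab1 and Ndufs1 went with exonic lengths of 5628, 6883 and 8086 bases against a median of 1282.5 for the members and 3516 for all genes tested. The order was nearly the same in each group, with rho of 0.993 between WT refed and WT fasting means, 0.992 between WT fasting and NAMPT LKO fasting means and 0.995 between WT refed and NAMPT LKO fasting means. These correlations are across genes, which share libraries and lengths, and are a description.

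**Figure D1:**
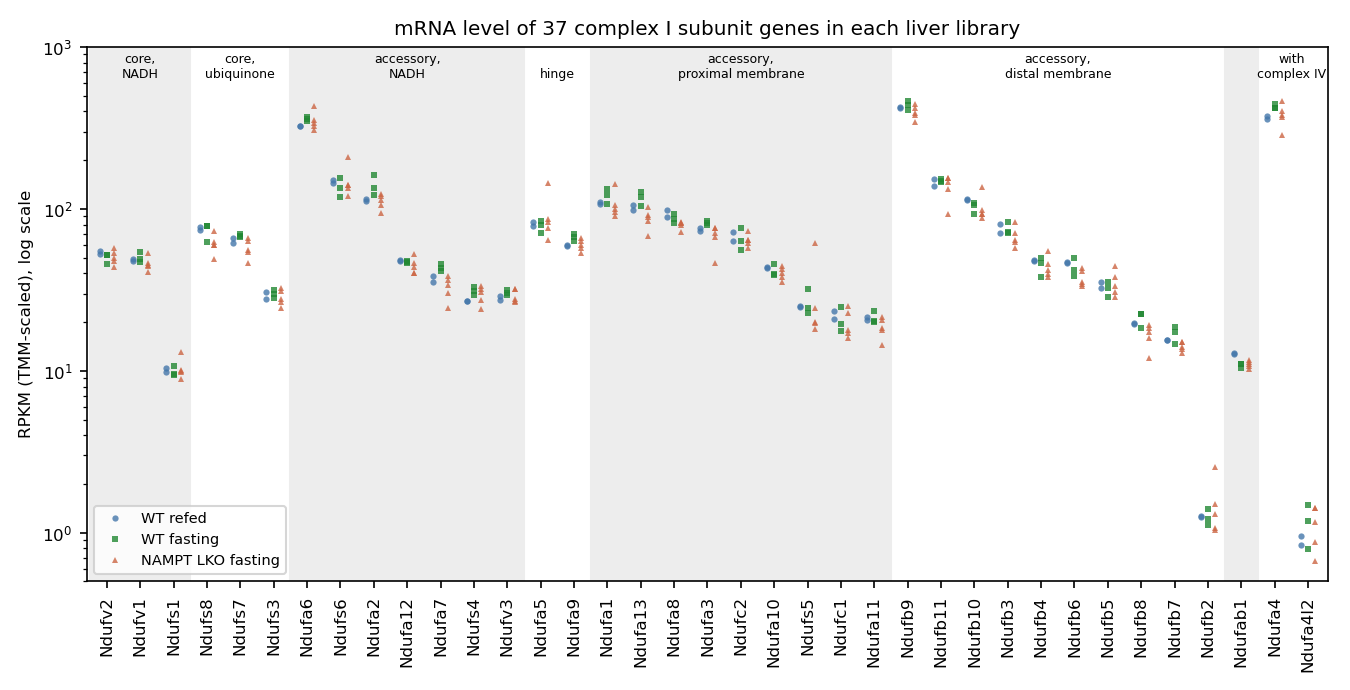
Level of 37 of the genes in each library, in TMM-scaled RPKM on a log axis, grouped by role (circles WT refed, squares WT fasting, triangles NAMPT LKO fasting). Ndufb9, Ndufa4 and Ndufa6 sit clear above the other members and Ndufb2 and Ndufa4l2 clear below them, and the 3 groups lie close together within nearly every gene.

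The core subunits carry the electron path. In the NADH arm, Ndufv1 (chr19:4007497-4012806, minus strand), which binds NADH and the flavin, was at 119 and 124 CPM in WT refed mice, 119, 137 and 124 in WT fasting mice and 114, 116, 112, 134 and 103 in NAMPT LKO fasting mice. Ndufv2 (chr17:66078795-66101559, minus strand), its iron-sulfur partner, was at 106 and 109, then 103, 103 and 91.0, then 94.3, 98.5, 86.7, 107 and 114 CPM. Both WT refed values of Ndufv2 were above the 3 WT fasting values, while the NAMPT LKO fasting mice spread on either side of both. Ndufs1 (chr1:63143596-63176833, minus strand), the largest core subunit and a carrier of several clusters, was at 79.7 and 84.7, then 77.1, 86.7 and 76.6, then 80.5, 79.2, 71.9, 82.2 and 106 CPM, with library 5 above all others. In the ubiquinone arm, Ndufs3 (chr2:90894634-90904827, minus strand) was at 67.0 and 60.3, then 65.3, 68.8 and 61.7, then 60.4, 57.8, 53.0, 67.9 and 70.4 CPM. The 3 groups overlapped for Ndufs3. Ndufs7 (chr10:80249121-80256794, plus strand), which carries the last cluster before ubiquinone, was at 105 and 113 in WT refed mice, at 121, 115 and 118 in WT fasting mice and at 114, 92.9, 95.9, 109 and 79.6 CPM in NAMPT LKO fasting mice. Every NAMPT LKO fasting value of Ndufs7 was thus below every WT fasting value, the nearest by less than 1 CPM. Ndufs8 (chr19:3908870-3912717, minus strand), a carrier of a pair of clusters, was at 74.0 and 71.0, then 59.9, 75.1 and 75.8, then 60.0, 57.5, 57.9, 70.7 and 47.0 CPM, and its groups overlapped through the lowest WT fasting mouse.

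WT fasting mice were compared with WT refed mice, which by the labels sets a 24 h fast against a 22 h fast with 2 h of refeeding. No group went without a fast, so a difference from unfasted liver was not measured. Below, "with fasting" means in WT fasting against WT refed mice. No member passed the test: 0 of 38 were called at an adjusted p of 0.05 by edgeR's quasi-likelihood test with Benjamini-Hochberg adjustment over 13444 genes, against 7.04% of all genes tested (2.68% higher and 4.36% lower). At an unadjusted p of 0.05, 1 member was lower (Ndufab1) and 0 were higher, against 11.9% and 10.4% of all genes. The voomWithQualityWeights fit of limma called 1 member (Ndufab1, log2 fold change -0.22, adjusted p = 0.0404), lower, against 13.8% of all genes lower and 10.9% higher in that fit, and edgeR's exact test and DESeq2 called 0 (against 8.91% and 12.2% of all genes). The median log2 fold change of the 38 genes was 0.035, beside 0.037 over all genes tested, and 17 of 38 were fitted lower in WT fasting mice (46.4% of all genes were). The 95% interval lay within 1.5-fold in either direction for 31 of 38 members against 27.9% of all genes, and within 2-fold for 36 of 38 against 62.8%. The WT fasting and WT refed values did not overlap in 14 members, 10 higher with fasting (among them Ndufa2, Ndufa3, Ndufa4, Ndufa6, Ndufa7, Ndufa9, Ndufs4, Ndufs7 and Ndufv3) against 24.5% of all genes, and 4 lower (Ndufa12, Ndufab1, Ndufb10 and Ndufv2) against 25.1%. With 3 against 2 mice the smallest exact permutation p is 0.1. The quasi-likelihood p-values rest on a spread estimated from all 10 libraries, those of NAMPT LKO fasting mice among them. Without NAMPT LKO fasting library 5, which is in neither group, that test again called 0 of 38 members, against 16.6% of all genes (7.0% higher and 9.63% lower). Ndufab1 then had an adjusted p of 0.0711.

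The members with the lowest p in this comparison were Ndufab1, Ndufa2, Ndufs4 and Ndufa9. Ndufab1 (chr7:122085403-122101886, minus strand), the mitochondrial acyl carrier protein, which also serves mitochondrial fatty acid and lipoic acid synthesis, was at 88.5 and 87.8 CPM in WT refed mice and at 76.4, 76.3 and 72.1 CPM in WT fasting mice. The NAMPT LKO fasting mice were at 71.0, 76.1, 73.4, 80.5 and 78.2 CPM, so all 8 fasting mice of both genotypes were below both WT refed mice. Its log2 fold change was -0.23 (SE 0.10, 95% interval -0.46 to -0.01), and edgeR's quasi-likelihood test put its unadjusted p at 0.0405 and its adjusted p at 0.199. Ndufa2 (chr18:36742332-36744557, minus strand), an accessory subunit with a thioredoxin-like fold on the NADH arm, was at 66.3 and 63.8 CPM in WT refed mice and at 69.4, 77.5 and 92.9 CPM in WT fasting mice. Its log2 fold change was 0.30 (SE 0.15), with an adjusted p of 0.277. Ndufs4 (chr13:114287795-114388094, minus strand), an accessory subunit of the NADH arm whose loss causes Leigh syndrome, was at 41.4 and 41.1 CPM in WT refed mice, at 45.0, 48.1 and 50.8 CPM in WT fasting mice and at 47.1, 41.9, 37.0, 49.4 and 51.6 CPM in NAMPT LKO fasting mice. Ndufs4 had a log2 fold change with fasting of 0.22 (SE 0.15) and an adjusted p of 0.415, and the values of NAMPT LKO fasting mice spanned those of both WT groups. Ndufa9 (chr6:126821863-126849144, minus strand), at the joint of the peripheral and membrane arms, was at 78.7 and 78.3, then 84.2, 88.5 and 92.03, then 75.4, 79.0, 71.1, 84.0 and 87.3 CPM. WT fasting mice were above both WT refed mice for Ndufa9, by 0.17 on the log2 scale (SE 0.12, adjusted p = 0.425). Ndufa4 was at 185 and 178 CPM in WT refed mice, 206, 219 and 207 in WT fasting mice and 188, 182, 141, 198 and 228 in NAMPT LKO fasting mice, a log2 fold change of 0.22 with fasting (SE 0.17, adjusted p = 0.502). Ndufa4l2 had the largest fitted difference of the members, 0.35 (SE 0.41, adjusted p = 0.664), but at 0.919 and 0.807 CPM, then 0.766, 1.43 and 1.13, then 0.843, 0.641, 1.36, 1.36 and 1.12 CPM it was the least expressed of the 38, and its groups overlapped. Ndufa4l2 also overlaps Shmt2 on the opposite strand. Only unambiguous reads were counted, and the strand setting is not given in the sources used here. How reads in the overlap were treated is thus not known. Ndufs1, Ndufs3, Ndufv2 and Ndufa2 likewise overlap genes on the opposite strand, and Ndufb8 overlaps Gm20538 on the same strand.

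**Figure D2:**
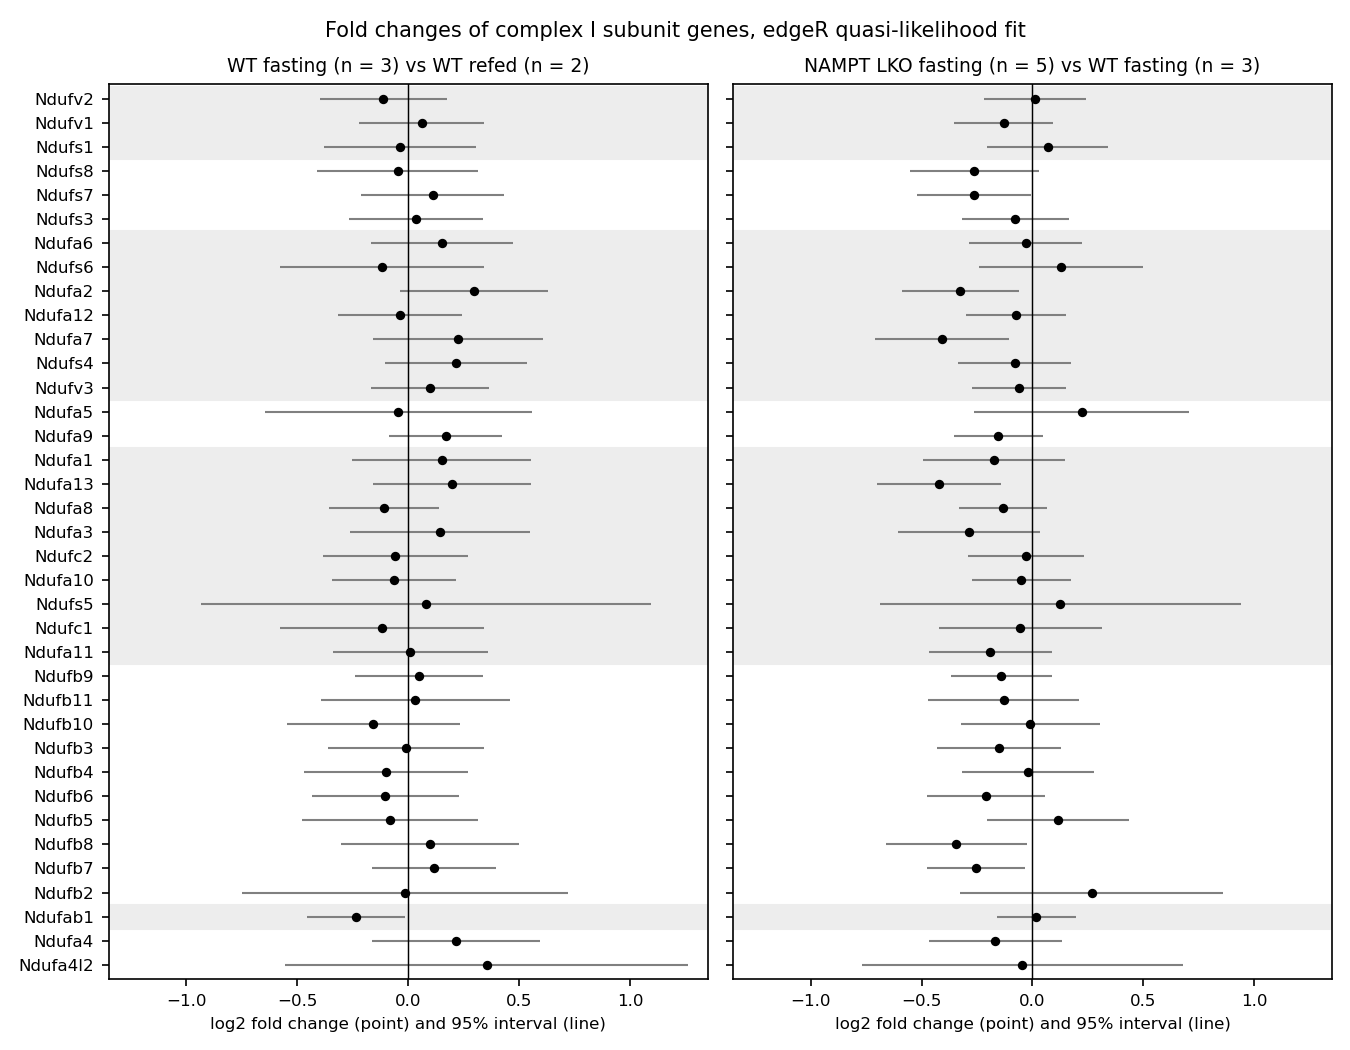
Fitted log2 fold change (points) and 95% interval (lines) of 37 of the genes, ordered by role (shaded bands), for WT fasting against WT refed (left) and NAMPT LKO fasting against WT fasting (right). On the left the genes lie on both sides of 0, with 17 of 37 below it, and on the right 29 of 37 lie below 0, with 6 intervals clear of 0.

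Between NAMPT LKO fasting and WT fasting mice, which asked what the loss of hepatocyte NAMPT did within the fast, most subunit genes were fitted slightly lower, by amounts that no test called. The count of members called was 0 of 38 by edgeR's quasi-likelihood test with Benjamini-Hochberg adjustment, by edgeR's exact test, by DESeq2 and by voomWithQualityWeights. Of all genes, the quasi-likelihood test called 0.00744%, which was Nampt alone. The median log2 fold change of the members was -0.078, against 0.00025 over all genes tested, and 30 of 38 were fitted lower, against 49.9% of all genes. An unadjusted p of 0.05 was passed by 6 members, all lower (Ndufa13, Ndufa7, Ndufa2, Ndufb7, Ndufb8 and Ndufs7), against 3.31% of all genes lower and 2.72% higher. The 2 groups did not overlap in 4 members, all lower in NAMPT LKO fasting mice (Ndufa13, Ndufa3, Ndufa7 and Ndufs7), against 2.12% of all genes lower and 1.87% higher. The members' 95% intervals lay within 1.5-fold for 29 of 38 and within 2-fold for 38 of 38, against 53.8% and 81.8% of all genes. In the voomWithQualityWeights fit, 38 of 38 members were fitted lower (50.7% of all genes), with a median log2 fold change of -0.163. There 12 members, all lower, passed an unadjusted p of 0.05, against 3.92% of all genes lower and 3.28% higher. The subunits share libraries, length and base composition, so they are not independent of each other.

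Ndufa13 (chr8:69894188-69902558, minus strand), a membrane-arm accessory subunit also known as Grim19, had the lowest p and the most negative fitted value. It was at 131 and 122 CPM in WT refed mice, at 129, 147 and 159 CPM in WT fasting mice and at 114, 111, 105, 127 and 84.6 CPM in NAMPT LKO fasting mice. The log2 fold change was -0.42 (SE 0.13, 95% interval -0.70 to -0.14), and edgeR's quasi-likelihood test put its unadjusted p at 0.00709 and its adjusted p at 0.761. Each of the 5 NAMPT LKO fasting mice was below all 3 WT fasting mice, and the two-sided exact permutation p was 0.0357, where 0.0179 is the smallest that 5 against 3 mice allow. Ndufa13 overlaps Yjefn3 on the same strand and Tssk6 on the other. Ndufa7 (chr17:33824591-33838316, plus strand), an accessory subunit of the NADH arm, was at 66.0 and 60.3, then 73.2, 78.2 and 69.9, then 61.6, 57.9, 51.2, 65.7 and 41.5 CPM, again with no overlap between the fasted groups. Its log2 fold change was -0.41 (SE 0.14, unadjusted p = 0.0127, adjusted p = 0.798). Ndufa2 was at 70.8, 60.3, 54.2, 65.1 and 68.7 CPM in NAMPT LKO fasting mice, against the 69.4 to 92.9 CPM of WT fasting mice given above, a log2 fold change of -0.33 (SE 0.12, adjusted p = 0.798) with 1 mouse overlapping. Ndufb7 (chr8:83566671-83571626, plus strand), a distal membrane-arm subunit held by disulfide bonds on the intermembrane side, was at 69.8 and 70.2, then 66.0, 78.1 and 83.7, then 63.6, 61.3, 58.0, 67.7 and 67.9 CPM. Its log2 fold change was -0.25 (SE 0.10, adjusted p = 0.827), and 2 NAMPT LKO fasting mice lay above the lowest WT fasting mouse. The core subunit Ndufs7, whose values stand above, had a log2 fold change of -0.26 (SE 0.12, unadjusted p = 0.0453, adjusted p = 0.827, exact permutation p = 0.0357). Ndufs8 was of the same size at -0.26 (SE 0.13, adjusted p = 0.837), and Ndufb8, of the distal membrane arm, was at -0.34 (SE 0.14, adjusted p = 0.827). Ndufb2 (chr6:39592574-39603382, plus strand) had the largest positive difference, 0.27 (SE 0.27, adjusted p = 0.865), from 7.13 and 7.06, then 6.83, 7.94 and 6.32, then 7.36, 6.06, 5.87, 8.52 and 14.4 CPM. Library 5 was the highest of the 10 for Ndufb2, and without it the log2 fold change was -0.015. Ndufb2 overlaps Adck2 on the same strand, so its reads are uncertain.

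**Figure D3:**
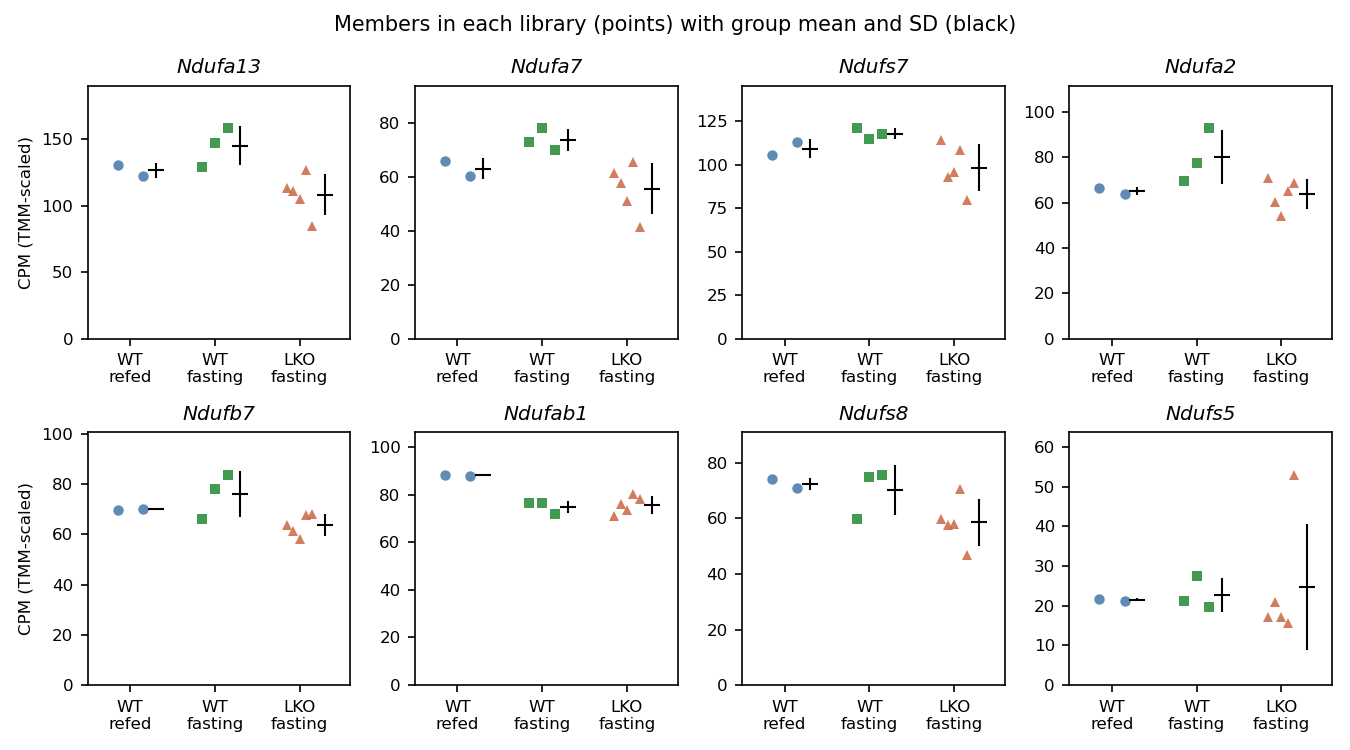
TMM-scaled CPM of 8 members in each library (points), with the group mean and SD in black and the axis from 0. Ndufa13, Ndufa7 and Ndufs7 show NAMPT LKO fasting mice below WT fasting mice with no overlap, Ndufab1 shows all fasted mice below the WT refed mice, Ndufs8 shows groups that overlap through the lowest WT fasting mouse, and Ndufs5 shows the single high value of 53.0 CPM in library 5.

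By role, the lower fitted values were not confined to a module. In the ubiquinone arm, the core subunits Ndufs7 and Ndufs8 are given above, and Ndufs3 had a log2 fold change of -0.077 (SE 0.11) between NAMPT LKO fasting and WT fasting mice. The NADH-arm core (Ndufv1, Ndufv2 and Ndufs1) had a median of 0.012, with 1 of 3 lower. Accessory subunits of the NADH module had a median of -0.074 with 6 of 7 lower, those of the proximal membrane arm -0.13 with 8 of 9 lower, and those of the distal membrane arm -0.13 with 8 of 10 lower. The differences between these groups were not tested. Between WT fasting and WT refed mice the accessory NADH module had the highest median among the complex I groups of 3 or more, 0.15, with 5 of 7 fitted higher, and the core was at 0.037 with 4 of 7 higher. The membrane arm accessory groups were near 0 in that comparison, at 0.0095 (proximal) and -0.012 (distal).

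The subunit genes were also read library by library, as deviations from each gene's own mean over the 10 libraries. The median deviation of the 38 genes, in log2 CPM, was 0.027 and 0.041 in WT refed mice and 0.0023, 0.149 and 0.035 in WT fasting mice. In NAMPT LKO fasting mice it was -0.093, -0.071, -0.211, 0.061 and 0.147, so libraries 1 to 3 were below every WT library and libraries 4 and 5 were not. In NAMPT LKO fasting library 3, 37 of 38 genes were below their own mean, and in WT fasting library 2, 1 of 38 was. As a share of all counted reads, with no TMM scaling, the 38 genes took 0.337 and 0.335% in WT refed mice, 0.327, 0.336 and 0.335% in WT fasting mice and 0.309, 0.304, 0.283, 0.323 and 0.287% in NAMPT LKO fasting mice. Every NAMPT LKO fasting share was below every WT share on that scale. On the TMM scale the summed CPM was 3261 ± 3.60 (SD, n = 2), 3364 ± 150 (SD, n = 3) and 3121 ± 243 (SD, n = 5), and the NAMPT LKO fasting range of 2779 to 3420 overlapped both WT groups. Library 5 has the largest share of mitochondrial reads and a TMM factor of 0.854 against 0.964 to 1.05 in the others, so its place differs between the scales.

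**Figure D4:**
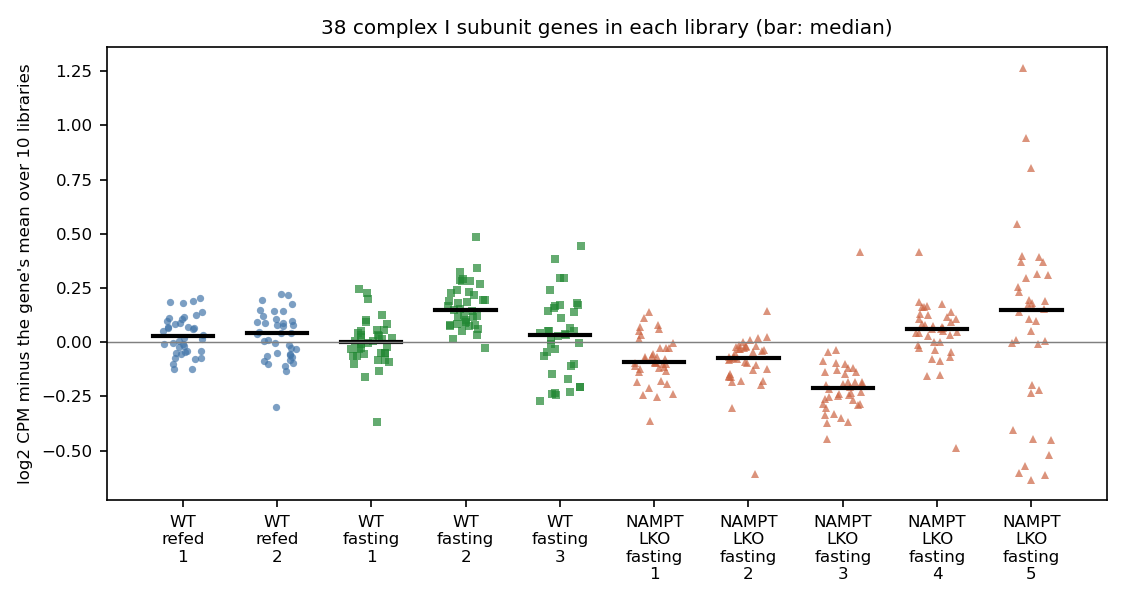
Deviation of each of the 38 genes from its own mean over 10 libraries (points, log2 CPM) in each library, with the median as a bar. The medians of NAMPT LKO fasting libraries 1 to 3 lie below 0, at -0.093, -0.071 and -0.211, and the points of NAMPT LKO fasting library 5 spread far wider than those of any other library.

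NAMPT LKO fasting library 5 stood apart for the members as well. The SD of the members' deviations was 0.430 there and 0.090 to 0.183 in the other 9 libraries, and over all genes tested it was 0.565 there and 0.312 to 0.507 in the others. Of the 38 genes, 19 were above all 9 other libraries and 10 were below all of them, against 23.3% and 25.6% of all genes, and 9 lay inside. The members that were highest there had a median exonic GC content of 48.8%, and those that were lowest had 55.3%. Across the 38 genes, Spearman's rho of the deviation with GC content was -0.529 in library 5 (-0.587 over all genes) and -0.136 to 0.520 in the others. Ndufs5 (chr4:123712710-123718202, minus strand), an accessory subunit on the intermembrane side of the proximal membrane arm, was at 21.7 and 21.2 CPM in WT refed mice, at 21.1, 27.6 and 19.6 CPM in WT fasting mice and at 17.1, 21.0, 17.1, 15.7 and 53.0 CPM in NAMPT LKO fasting mice. Its log2 fold change against WT fasting mice was 0.12 (SE 0.37) with library 5 and -0.36 (SE 0.13) without it. The median coefficient of variation of the members was 14.3% in NAMPT LKO fasting mice, from 4.95% in Ndufab1 to 64.3% in Ndufs5, and 8.45% in WT fasting mice, from 1.80% in Ndufa12 to 29.8% in Ndufa4l2. Genes within the members' range of expression (11860 genes) had medians of 17.6% and 11.3%.

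**Figure D5:**
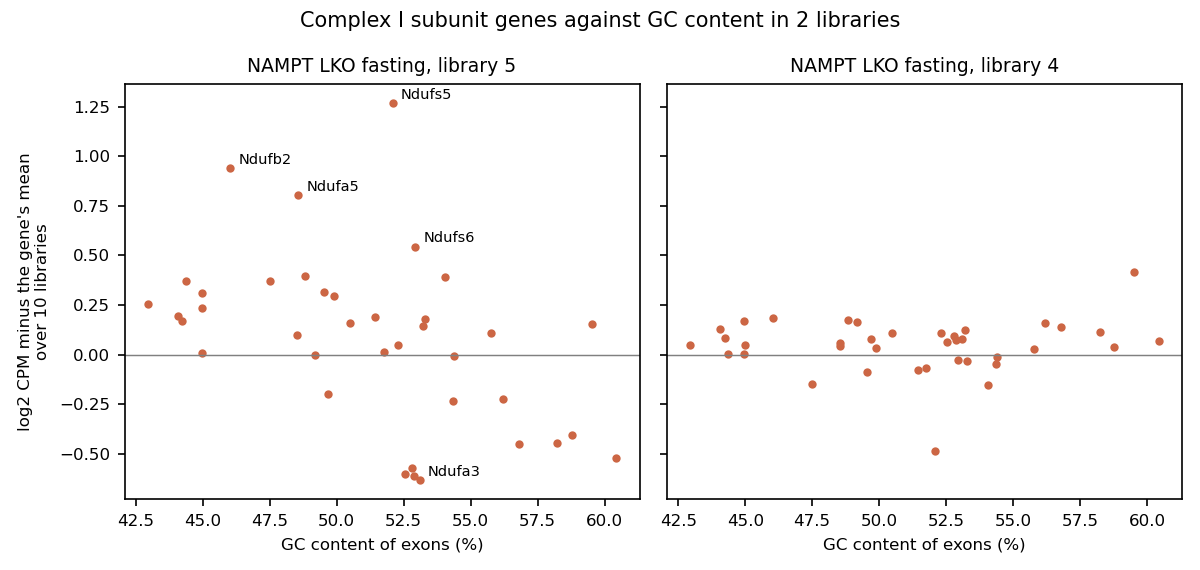
Deviation of each of the 38 genes from its own mean (log2 CPM) against the GC content of its exons, in NAMPT LKO fasting library 5 (left) and, for contrast, library 4 (right). In library 5 the points fall with GC content (rho -0.529) from Ndufb2 and Ndufa5 at the top to Ndufa3 at the bottom, with Ndufs5 highest, and in library 4 most lie in a narrow band around 0, with a low and a high point outside it.

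Without library 5, more of the members were fitted lower in NAMPT LKO fasting than in WT fasting mice. The count was 36 of 38 (51.2% of all genes), with a median log2 fold change of -0.129, 12 members at an unadjusted p of 0.05 (all lower, against 4.54% of all genes lower and 3.64% higher) and 7 that did not overlap between groups (all lower, against 3.45%). None was called, the smallest adjusted p being 0.588. Ndufa13 was then at -0.35, Ndufa7 at -0.32, Ndufa2 at -0.35, Ndufa1, an accessory membrane-arm subunit, at -0.30 and Ndufb7 at -0.28. Other libraries moved these counts as well. The number at an unadjusted p of 0.05, which was 6 with all libraries, was 3 without NAMPT LKO fasting library 3 (25 members lower, median -0.060), 2 without WT fasting library 2 (24 lower, median -0.066) and 2 without WT fasting library 3 (31 lower, median -0.126). All that passed were lower, against 2.66%, 3.16% and 1.29% of all genes lower at that p in these fits, in that order. Of all genes, 50.5%, 49.6% and 47.0% were fitted lower there. GC content and length of the genes went with the fitted values too. Across the members, rho of the NAMPT LKO fasting against WT fasting log2 fold change with GC content was -0.38 (-0.37 over all genes) and with exonic length 0.17. Once the GC trend was taken out of every library, 29 of 38 members were lower (49.5% of all genes) with a median of -0.059. Once the trend with exonic length was taken out, 24 were lower (49.8% of all genes) with a median of -0.032. With both removed, a choice made after seeing the data, 22 were lower (50.7% of all genes) with a median of -0.035. In these 3 fits, in that order, 6, 5 and 3 members passed an unadjusted p of 0.05. All were lower, against 3.29%, 3.13% and 2.98% of all genes lower.

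NAMPT LKO fasting mice were also set against WT refed mice, a comparison that differs in both genotype and feeding and shares its libraries with the others. Here too 0 of 38 members were called by edgeR's quasi-likelihood test with Benjamini-Hochberg adjustment, against 11.2% of all genes (4.65% higher and 6.58% lower), and edgeR's exact test and DESeq2 called 0 (against 12.9% and 16.7%). At an unadjusted p of 0.05, 3 members were lower (Ndufab1, Ndufa8 and Ndufb6) and 0 higher, against 13.5% of all genes lower and 12.6% higher. The voomWithQualityWeights fit called 3 members lower, against 17.0% of all genes lower and 14.8% higher in that fit: Ndufab1 (-0.23, adjusted p = 0.018), Ndufb10, of the distal membrane arm (-0.28, adjusted p = 0.0229), and Ndufa8, an intermembrane-space accessory subunit (-0.20, adjusted p = 0.0434). The median log2 fold change was -0.093 against 0.032 over all genes, and 25 of 38 were fitted lower against 46.8%. The 95% interval lay within 1.5-fold for 30 of 38 (31.3% of all genes) and within 2-fold for 36 of 38 (66.4%). The groups did not overlap in 6 members, all lower in NAMPT LKO fasting mice (Ndufa8, Ndufab1, Ndufb6, Ndufb7, Ndufb8 and Ndufs8), against 17.8% of all genes lower and 15.7% higher. Ndufa8 was at 77.3 and 85.03 CPM in WT refed mice and at 68.3, 71.9, 70.7, 70.6 and 62.0 CPM in NAMPT LKO fasting mice, and its quasi-likelihood log2 fold change was -0.24 (SE 0.10, adjusted p = 0.165). Ndufab1 was at -0.22 (adjusted p = 0.163), close to its value in the comparison of the WT groups, and at 0.017 between the fasted groups. Without NAMPT LKO fasting library 5 the quasi-likelihood test called 1 member lower, against 11.6% of all genes lower and 9.46% higher in that fit. It was Ndufb10 (-0.29, adjusted p = 0.0409), which was at 139 and 139 CPM in WT refed mice and at 120, 113, 108, 113 and 166 CPM in NAMPT LKO fasting mice.

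Genes that build, accompany or feed complex I were counted beside its subunits. Of 19 assembly factors, 18 were tested. In WT fasting against WT refed mice, 15 of 18 were fitted lower with a median log2 fold change of -0.28, and 1 was called lower and 0 higher by edgeR's quasi-likelihood test with Benjamini-Hochberg adjustment (against 4.36% and 2.68% of all genes). At an unadjusted p of 0.05, 6 were lower and 1 higher (against 11.9% and 10.4% of all genes). The voomWithQualityWeights fit called 8 lower and 1 higher (against 13.8% and 10.9% of all genes), DESeq2 called 2 lower and 1 higher (against 7.12% and 5.12%) and edgeR's exact test called 1 lower and 0 higher (against 5.36% and 3.55%). Without NAMPT LKO fasting library 5 the quasi-likelihood test called 3 lower and 1 higher (against 9.63% and 7.0%). The gene called in the fit of all libraries was Ndufaf4, needed for early assembly of the peripheral arm. It was at 35.6 ± 2.22 CPM (SD, n = 2) in WT refed and 18.4 ± 4.14 CPM (SD, n = 3) in WT fasting mice, a log2 fold change of -0.95 (SE 0.20, adjusted p = 0.0166). The call was lost without either WT refed library, with an adjusted p of up to 0.158. In NAMPT LKO fasting against WT refed mice, the quasi-likelihood test called 4 of 18 lower and 1 higher, against 6.58% and 4.65% of all genes. Those lower were Ndufaf4 at -0.84, Ndufaf3 at -0.62, Timmdc1 at -0.53 and Tmem70 at -0.43, with adjusted p of 0.0132, 0.024, 0.0291 and 0.0356, and the 1 higher was Dmac2 at 0.44 (adjusted p = 0.0301). There edgeR's exact test called 4 lower (against 7.23% of all genes), DESeq2 7 lower (against 8.96%) and voomWithQualityWeights 10 lower (against 17.0%), each with 1 higher (against 5.65%, 7.72% and 14.8%). Each of these 5 calls was lost without either WT refed library, and those of Timmdc1, Tmem70 and Dmac2 also without some of the fasting libraries, while 9 were called lower and 1 higher without NAMPT LKO fasting library 5 (against 11.6% and 9.46% of all genes). Between NAMPT LKO fasting and WT fasting mice, 0 of 18 were called by each of the 4 tools, 0 passed an unadjusted p of 0.05, and the median was -0.042.

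The 7 complex I subunits of the mitochondrial genome had 0 calls in each of the 3 comparisons by edgeR's quasi-likelihood test, edgeR's exact test, DESeq2 and voomWithQualityWeights. At an unadjusted p of 0.05, 0 passed in any comparison by the quasi-likelihood test, the exact test and voomWithQualityWeights, while DESeq2 had 2 higher in NAMPT LKO fasting against WT fasting mice. Their median log2 fold change was -0.20 in WT fasting against WT refed mice and 0.65 in NAMPT LKO fasting against WT fasting mice, with 7 of 7 fitted higher in the latter. Their summed level was 136767 CPM in NAMPT LKO fasting library 5 and 30415 to 63199 CPM in the other 9, and without that library the median was 0.28. The 38 nuclear subunits of complexes II to V also had 0 calls by edgeR's quasi-likelihood test with Benjamini-Hochberg adjustment, edgeR's exact test and DESeq2. For them voomWithQualityWeights called 1 higher in WT fasting and 1 lower in NAMPT LKO fasting mice, each against WT refed mice (against 10.9% and 17.0% of all genes). In WT fasting against WT refed mice 32 of 38 were fitted higher (median 0.052). In NAMPT LKO fasting against WT fasting mice 29 of 38 were fitted lower (median -0.148), beside 30 of 38 of the complex I subunits. There 6 of them, all lower, passed an unadjusted p of 0.05, against 3.31% of all genes lower. The lowest quasi-likelihood p among them in that comparison was that of Uqcrq, a small subunit of complex III, at -0.34 (unadjusted p = 0.0095, adjusted p = 0.788). Without NAMPT LKO fasting library 5, 37 of these 38 were fitted lower (51.2% of all genes) with a median of -0.147. Of them 9, all lower, passed an unadjusted p of 0.05 (against 4.54% of all genes lower). Under voomWithQualityWeights 38 of 38 were lower (50.7% of all genes) with a median of -0.185. There 14, all lower, passed that p (against 3.92%).

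Among 11 factors known to act on respiratory genes, edgeR's quasi-likelihood test called 1 higher and 0 lower in WT fasting against WT refed mice (against 2.68% and 4.36% of all genes). It was Sirt1, the NAD+-dependent deacetylase, with a log2 fold change of 0.63 (SE 0.15, adjusted p = 0.0335 in that test). Its level was 6.79 ± 0.442 CPM (SD, n = 2) in WT refed and 10.5 ± 0.507 CPM (SD, n = 3) in WT fasting mice. That call was lost in 7 of 10 fits that each left out 1 library, with an adjusted p of up to 0.298. Between the WT groups the exact test, DESeq2 and voomWithQualityWeights called 1, 2 and 3 factors higher and 0 lower. Of all genes they called 3.55%, 5.12% and 10.9% higher. In NAMPT LKO fasting against WT refed mice the quasi-likelihood test called 2 factors higher and 0 lower (against 4.65% and 6.58% of all genes). The other 3 tools called 2, 2 and 5 higher there (against 5.65%, 7.72% and 14.8%). Sirt1 was at 0.75 (adjusted p = 0.00866) and Ppargc1a, a coactivator of mitochondrial genes, at 1.76 (adjusted p = 0.0236) by the quasi-likelihood test. Each was called in 8 of 10 fits that left out 1 library and lost without either WT refed library. Another list held 17 enzymes that hand electrons to ubiquinone or carry NADH equivalents across the mitochondrial membrane. In WT fasting against WT refed mice edgeR's quasi-likelihood test called 0 of these 17 (against 7.04% of all genes). At an unadjusted p of 0.05 in that test, 3 were higher and 0 lower, against 10.4% and 11.9% of all genes. The exact test, DESeq2 and voomWithQualityWeights called 1, 3 and 4 higher (against 3.55%, 5.12% and 10.9%). In NAMPT LKO fasting against WT refed mice these 3 tools called 3, 3 and 5 higher (against 5.65%, 7.72% and 14.8%). There voomWithQualityWeights also called 1 lower (against 17.0%). The quasi-likelihood test called 3 enzymes higher there and 0 lower, against 4.65% and 6.58% of all genes. These were Gpd2, the mitochondrial glycerol-3-phosphate dehydrogenase, at 0.81 (adjusted p = 0.0297), Got1, the cytosolic aspartate aminotransferase, at 1.18 (adjusted p = 0.0354), and Slc25a12, an aspartate-glutamate carrier, at 0.54 (adjusted p = 0.0487). Each was lost without either WT refed library and without some NAMPT LKO fasting libraries, Slc25a12 in 8 of 10 fits. Between NAMPT LKO fasting and WT fasting mice, 0 of the 11 factors and 0 of the 17 enzymes were called by any of the 4 tools. At an unadjusted p of 0.05, 0 factors and 1 enzyme (Aifm2, lower) passed by the quasi-likelihood test (against 3.31% of all genes lower). At that p voomWithQualityWeights had 1 enzyme higher and 1 lower (against 3.28% and 3.92%).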

How the data were processed

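Total RNA of 10 mouse livers was poly-A selected and sequenced in single 50-base reads. The authors aligned the reads to GRCm38 with STAR and counted uniquely aligned, unambiguous reads per Ensembl gene with featureCounts. The submitters' processing notes give STAR 2.5.1a and featureCounts 1.4.6-p5, the study's methods give other versions, and the strand setting is not given in the sources used here. The deposited files hold the raw count, the CPM and the RPKM of each gene, and the deposited CPM and RPKM follow from the counts, the library total and the exonic length.

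Symbols, gene types and exonic GC content came from GENCODE vM21 on the same build. The members, gene lists and tests were chosen with earlier results of these data known. Members named with values in every mouse were the core subunits (1 of which is not reported here, but is counted in sums over the 38 genes), the 4 with the lowest p and those with the largest rise and fall in each of the first 2 comparisons, the highest and lowest by RPKM, and Ndufa4, Ndufa4l2 and Ndufab1. Ndufb8, Ndufs5, Ndufa8, Ndufb10, Ndufa1 and Ndufa3 were named after their values were seen.

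Counts were fitted with the quasi-likelihood test of edgeR 4.0.16 (R 4.3.3), with TMM factors, the 3 groups and all 10 libraries in a single fit. The 355 rRNA genes were left out, and 13444 genes over 1 CPM in at least 1 library were kept. P-values were adjusted by Benjamini-Hochberg over these genes and called at 0.05. The 95% intervals of fold changes come from this fit. CPM and RPKM in the text are TMM-scaled, and marker sums are CPM of the library total. Alternatives were the voomWithQualityWeights fit of limma 3.58.1, which the study's methods name, edgeR's exact test, DESeq2 1.42.0, other scalings and filters, each library left out, and trends with GC content or length removed by loess offsets. Single values were compared by exact permutation tests. The fits were tested on simulated data. Replicates are separate mice per the labels, 2 to 5 a group.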

Additional observations from a re-analysis of the deposited data

Results flagged for a closer look

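Among the 40 groups of 5 NAMPT LKO fasting values examined for a sample far from the others (the 38 members, their summed level and their median deviation), 4 held such a value. About 1 in 20 such groups, or 2 here, would hold a value that far out by chance. The 40 groups share the same 5 libraries and are not independent, so the 4 cannot be weighed against the 2. All 4 were high values of NAMPT LKO fasting library 5. Ndufa5, an accessory subunit of the peripheral arm, was at 150 CPM there and at 66.4 to 89.6 CPM in the other 4 NAMPT LKO fasting mice. Ndufb10, of the distal membrane arm, was at 166 CPM against 108 to 120 CPM. Ndufs5, of the proximal membrane arm, was at 53.0 CPM against 15.7 to 21.0 CPM. Ndufs6, a zinc-binding subunit of the NADH arm, was at 131 CPM against 75.5 to 88.6 CPM. This is the library with 21.1% mitochondrial reads and with member deviations that followed GC content (rho -0.529), and the part of either in these values was not tested.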

How the results depend on the processing

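Counts of members called were 0 in every comparison, and 138 of 145 recomputed counts and medians moved by less than the spread between replicates. The exceptions were the unadjusted p (1, 6 and 3 members in the 3 comparisons), voomWithQualityWeights (1 in WT fasting against WT refed and 3 in NAMPT LKO fasting against WT refed mice), both trends removed (1, Ndufab1 at -0.34, in NAMPT LKO fasting against WT refed mice, against 14.9% of all genes, 10.2% lower and 4.73% higher) and the fits without 1 library (0 to 1 there, the 1 without NAMPT LKO fasting library 5). The cause of these differences was not tested. The spread between replicates was 0.113 for the median of the members, larger in size than the medians themselves (0.035, -0.078 and -0.093). A median could thus reach 0 or change sign without counting as moved, so the 138 do not show that the medians hold. In NAMPT LKO fasting against WT fasting mice the median was -0.163 under voomWithQualityWeights. The median log2 fold change without 1 library ranged from -0.026 to 0.040, from -0.129 to -0.060 and from -0.124 to -0.063 in the 3 comparisons, and that of WT fasting against WT refed mice, 0.035, took either sign across settings (-0.030 with library size alone, -0.050 with both trends removed).

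Single members were recomputed in full for the 17 named by the rule. Of their 1156 recomputed log2 fold changes, 74 changed sign and 3 were newly called (Ndufab1, at -0.22 and -0.23 under voomWithQualityWeights and -0.34 with both trends removed). None of the 74 was called, and none of these members that changed sign had a fitted value beyond 0.27 in size. In WT fasting against WT refed mice, Ndufb2 was 0.030 under voomWithQualityWeights, Ndufv1 was -0.0036, Ndufs3 -0.028 and Ndufb9 -0.015 with library size alone, Ndufv1 was -0.0011 and Ndufb9 -0.0085 with the GC trend removed, Ndufb9 was -0.042 with the length trend removed and Ndufv1 was -0.011, Ndufs3 -0.0093 and Ndufb9 -0.094 with both trends removed. In NAMPT LKO fasting against WT fasting mice, Ndufv2 was -0.063, Ndufs1 -0.051, Ndufab1 -0.0055 and Ndufb2 -0.077 under voomWithQualityWeights, Ndufv2 was -0.021 and Ndufab1 -0.011 with library size alone, Ndufv2 was -0.059, Ndufs1 -0.0095, Ndufab1 -0.043 and Ndufa4l2 0.10 with the GC trend removed, Ndufab1 was -0.027 and Ndufa4l2 0.052 with the length trend removed and Ndufv2 was -0.030, Ndufs1 -0.055, Ndufab1 -0.080, Ndufa4l2 0.17 and Ndufb9 0.016 with both trends removed. In NAMPT LKO fasting against WT refed mice, Ndufs1 was -0.055, Ndufa9 -0.015, Ndufb2 -0.046 and Ndufa4 -0.030 under voomWithQualityWeights, Ndufs1 was -0.072, Ndufa9 -0.080 and Ndufa4 -0.054 with library size alone, Ndufa9 was -0.011 with no filter beyond 1 count, Ndufs1 was -0.042, Ndufa9 -0.017 and Ndufa4 -0.031 with the GC trend removed, Ndufs1 was -0.060 with the length trend removed and Ndufs1 was -0.13, Ndufa9 -0.0031 and Ndufa4 -0.065 with both trends removed. Without 1 library, the ranges of these members that crossed 0 were Ndufs1 -0.097 to 3.5e-04, Ndufs3 -0.044 to 0.10, Ndufs8 -0.11 to 0.046 and Ndufb2 -0.11 to 0.047 in WT fasting against WT refed mice, Ndufv2 -0.046 to 0.059, Ndufs1 -0.031 to 0.13, Ndufab1 -0.010 to 0.040, Ndufa4l2 -0.25 to 0.17 and Ndufb2 -0.015 to 0.37 in NAMPT LKO fasting against WT fasting mice, and Ndufs1 -0.065 to 0.072, Ndufs3 -0.12 to 0.026, Ndufa2 -0.067 to 0.016, Ndufa9 -0.018 to 0.044, Ndufb2 -0.026 to 0.35 and Ndufa4 -0.030 to 0.13 in NAMPT LKO fasting against WT refed mice. Of 20 other members, 6, 9 and 7 also changed sign without 1 library in the 3 comparisons, Ndufs5 and Ndufa5 in each. Of these 20, Ndufa8 and Ndufb10 were newly called under voomWithQualityWeights, and Ndufb10 without NAMPT LKO fasting library 5, in NAMPT LKO fasting against WT refed mice.

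Replicate numbers 1 to 3 are shared by the fasted groups, but the labels do not say that they mark a litter or day. Deviations of same-numbered libraries correlated at 0.104, 0.078 and 0.097, each the highest for its number, which is a hint from the data and not a pairing. With the replicate block the median of the members was -0.179 and without it, in the same 6 libraries, -0.179, with 0 members called in both. Ndufv2, Ndufs1, Ndufab1 and Ndufb2 then changed sign, to -0.089, -0.053, -0.028 and -0.13 with the block and -0.090, -0.053, -0.028 and -0.13 without it.

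With 2 to 5 mice a group, changes of any size within the intervals given remain compatible with the data. The intervals are not limits of detection. Some of them exclude no change before adjustment, but no member was called in the fit they come from. Counts of 1 CPM as for Ndufa4l2 limit its value further.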
